A study of Homo sapiens with 4 samples.

Results

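A set of 10 genes of epithelial cell junctions was followed by RNA sequencing in Huh7, an established human liver cancer line, with or without depletion of the nuclear pore glycoprotein gene NUP210. They are the claudins CLDN1, CLDN3 and CLDN7, the tight junction genes OCLN, F11R and TJP1, the cadherins CDH1 and CDH2, the catenin gene CTNNB1, and EPCAM. All were taken by symbol from the 20226 genes listed in each of the 4 deposited tables, and all 10 were present. The shNUP210 group holds 2 libraries of Huh7 cells carrying a short hairpin RNA against NUP210. The shCon group holds 2 libraries whose titles name a control hairpin and whose genotype is given as wild type. Both groups are the same cell line, and both are marked untreated. Nothing in the labels says that the 2 libraries per group are separate cultures, or how many hairpin sequences or clones were used. The p-values therefore speak only to variation among these 4 libraries, and that variation may be technical.

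Epithelial cells are held together at their sides by a belt of tight junctions above a belt of adherens junctions. Claudins are 4-pass membrane proteins whose extracellular loops set which ions and molecules pass between cells, and occludin and JAM-A sit beside them on scaffold proteins such as ZO-1. In adherens junctions, cadherins bind their counterparts on the next cell and hold beta-catenin on their tails. Beta-catenin also carries Wnt signals to the nucleus. Hepatocytes use such junctions to seal bile canaliculi. Healthy hepatocytes carry both E-cadherin and N-cadherin. EPCAM marks biliary and progenitor cells more than mature hepatocytes, and its protein is known to bind claudin-7.

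The promoters of the claudin genes are shown because CLDN1 was higher in shNUP210 and CLDN3 and CLDN7 were lower. CLDN3 and CLDN7 were not called. They passed the filter of 5 TPM in 2 libraries through the shCon libraries alone, so their groups had to differ. The sequences are from RefSeq (GRCh38.p14), which had entries for 7 of the 10 genes, read on the strand of the gene, and they end before the start of transcription. The CLDN1 stretch (chr3:190322476-190322540, minus strand, 94 to 30 bases before the start) is the longest part of its 250-base window outside listed exons. The CLDN3 stretch (chr7:73770271-73770520, minus strand) and the CLDN7 stretch of the outer start (chr17:7263214-7263463, minus strand) are the full 250 bases.
CLDN1: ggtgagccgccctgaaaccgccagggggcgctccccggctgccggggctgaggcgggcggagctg
CLDN3: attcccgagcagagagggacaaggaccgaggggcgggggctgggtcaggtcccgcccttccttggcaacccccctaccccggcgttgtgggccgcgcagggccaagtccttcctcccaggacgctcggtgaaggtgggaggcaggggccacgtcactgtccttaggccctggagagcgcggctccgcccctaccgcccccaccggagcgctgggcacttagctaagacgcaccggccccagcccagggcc
CLDN7, outer start: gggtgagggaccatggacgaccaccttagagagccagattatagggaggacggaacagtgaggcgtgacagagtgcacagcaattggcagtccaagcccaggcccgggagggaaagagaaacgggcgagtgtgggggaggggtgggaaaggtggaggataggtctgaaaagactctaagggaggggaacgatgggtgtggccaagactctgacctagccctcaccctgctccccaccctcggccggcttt

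The letters CAGGTG, read on both strands, are the core of the E-box that SNAI and ZEB repressors bind, and they are a subset of the general E-box CANNTG. They were absent from the windows of CLDN1 and CLDN3 and from the outer CLDN7 window. The window before the inner CLDN7 start, which lies wholly within exons of longer CLDN7 transcripts, held them 4 times, shown in capitals in 3 stretches of 30 bases ordered towards the start (chr17:7262632-7262661, chr17:7262593-7262622 and chr17:7262479-7262508, minus strand).
CLDN7, inner start, farthest stretch: cttcctcctCACCTGggcaaggaggggtgg
CLDN7, inner start, middle stretch: cttccggttCAGGTGagtgtcccttcggtg
CLDN7, inner start, nearest stretch: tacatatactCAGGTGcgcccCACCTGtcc
Of 35116 promoter windows of the same length, 17.5% held CAGGTG at least once and 0.122% held it 4 times or more. The cut at 4 is the count of the inner CLDN7 window itself, so the 0.122% does not measure how unusual that window is. OCLN and TJP1 also held it, CTNNB1 and CDH2 did not, and CDH2 held another CANNTG, which 61.8% of all windows held. The letters GGAATG, the core of the motif of TEAD factors, was in 11.9% of all windows and in none of those of the 7 genes. A match is a description of the letters, not a site in use.

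The tables hold TPM, a unit scaled by length and by library sum. NUP210 itself, a check of the labels, fell to 10.1 and 9.85 TPM with shNUP210, against 32.8 and 27.3 TPM with shCon (log2 fold change -1.495, SE 0.24, limma adjusted p = 0.0432). The test was limma on log2(TPM + 1), over the 10140 genes with at least 5 TPM in at least 2 libraries, with Benjamini-Hochberg adjustment over all of them and a call at an adjusted p under 0.05. It called 290 genes (2.86%), 181 higher (1.79%) and 109 lower (1.07%). Over the tested genes the log2 fold changes had a median of 0.23, and scaling by a trimmed mean moved it to 0.002 and the split of calls to 76 higher and 252 lower. TPM keeps no read depth, and 1 fragment on a 1 kb transcript is worth roughly 0.61 and 0.67 TPM with shNUP210 and 0.53 TPM in both shCon libraries. All 8 hepatocyte markers were listed, and they summed to 14118 and 14242 TPM in shNUP210, against 18846 and 18339 TPM in shCon. Of these markers APOA1, SERPINA1 and TF fell, with log2 fold changes of -1.31, -0.73 and -0.78 (limma adjusted p = 0.00253, 0.00977 and 0.0133), and they were called lower under the other 4 scalings too. The other 5 did not fall in TPM as deposited, and none of them was called. Their log2 fold changes were 0.565 for TTR (limma adjusted p = 0.0501), 0.304 for HNF4A, 0.113 for AFP, 0.032 for APOB and 0.011 for ALB. The part of the hepatocyte markers in the junction values was not tested. Markers of endothelium and leukocytes were mostly not listed.

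All 10 genes passed the expression filter and 1 was called, CLDN1, against 2.86% of all tested genes. CLDN3 and CLDN7 passed the filter through the shCon libraries alone and TJP1 through the shNUP210 libraries alone, so the groups of these 3 had to differ. Between-group separation is common in these data: in 42.9% of tested genes both shNUP210 libraries lay above both shCon libraries, and in 14.3% both lay below, which makes 57.3% without overlap. CLDN1, OCLN, TJP1, CDH2 and CTNNB1 lay above without overlap, CLDN3, CLDN7 and EPCAM lay below without overlap, and CDH1 and F11R overlapped. The median log2 fold change of the 10 genes was 0.19, beside the 0.23 of all tested genes.

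**Figure D1:**
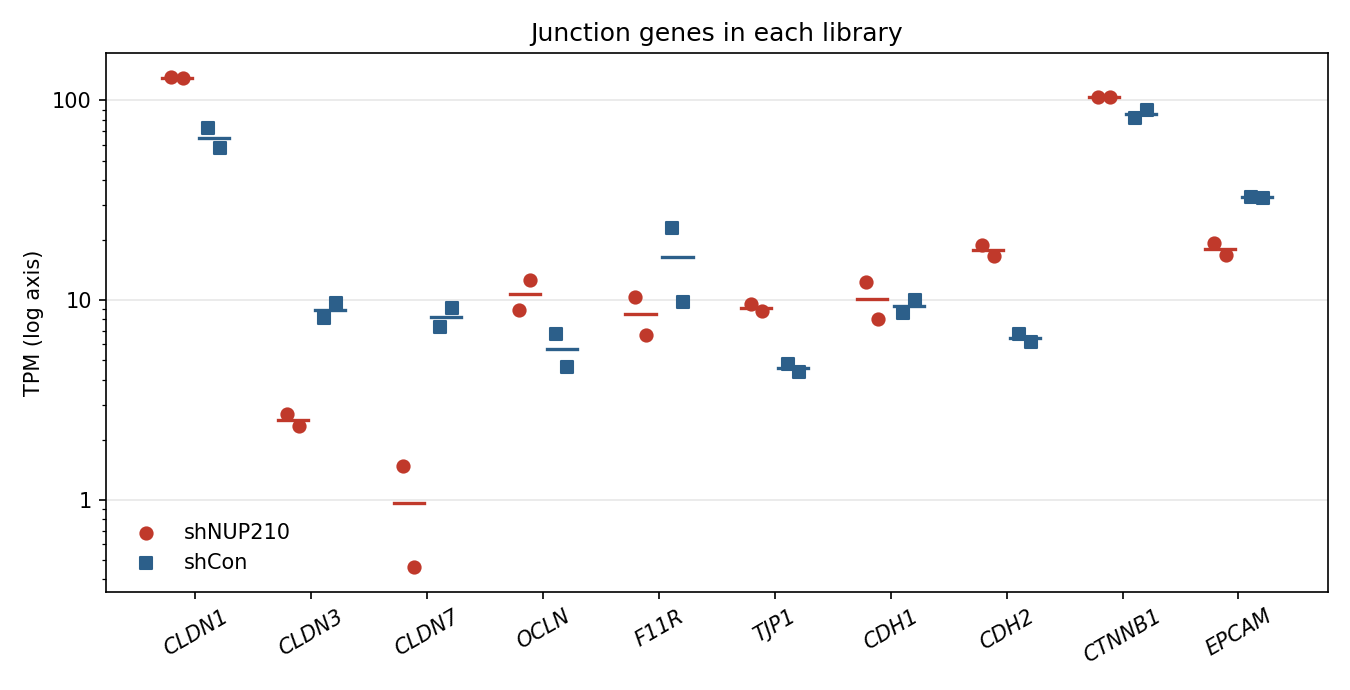
TPM of each of the 10 junction genes in each library, on a log axis, with shNUP210 libraries as circles, shCon libraries as squares and group means as lines. CLDN1 sits near 130 TPM in both shNUP210 libraries and at 72.5 TPM or less in both shCon libraries, while CLDN7 is at most 1.47 TPM in shNUP210 and at least 7.30 TPM in shCon.

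CLDN1 (ENSG00000163347, GRCh38 chromosome 3, 190305701 to 190322475, minus strand, protein-coding) encodes the claudin-1 of hepatocyte tight junctions, which is also an entry factor for hepatitis C virus. Its level was 130.2 and 129.5 TPM with shNUP210, against 72.5 and 57.8 TPM with shCon. Both shNUP210 libraries were nearly equal and above both shCon libraries, which differed from each other. CLDN1 rose 1.99-fold, with a log2 fold change of 0.99 (SE 0.16) and a limma adjusted p of 0.043, in 2 of 2 libraries. The call was lost under the other 4 scalings, where the CLDN1 log2 fold change was 0.70 to 0.85 (limma adjusted p 0.0595 to 0.0683), and whenever a library was left out (adjusted p 0.124 to 0.17).

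CLDN3 (ENSG00000165215, chromosome 7, 73768997 to 73770270, minus strand) has 1 listed transcript and encodes a barrier-forming claudin. CLDN3 was at 2.68 and 2.33 TPM in shNUP210, against 8.15 and 9.65 TPM in shCon. The mean in shNUP210 was 0.281 of that in shCon, and the log2 fold change was -1.496 (SE 0.40, limma adjusted p = 0.105), which did not pass. On its 1274-base transcript these values are about 5.6 and 4.4 fragments in shNUP210 and 19.6 and 23.2 in shCon, so the estimate rests on few reads.

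CLDN7 (ENSG00000181885, chromosome 17, 7259903 to 7263983, minus strand) encodes claudin-7, which lies along the sides of epithelial cells. CLDN7 was at 1.47 and 0.46 TPM in shNUP210, against 7.30 and 9.18 TPM in shCon. Both shNUP210 libraries lay below both shCon libraries and differed from each other. The mean in shNUP210 was 0.117 of that in shCon, with a log2 fold change of -2.28 (SE 0.53, limma adjusted p = 0.0839), which did not pass. CLDN7 had the lowest log2 fold change of the 10 genes. Depending on which of its 8 listed transcripts is used (485 to 1923 bases), the second shNUP210 library holds about 0.3 to 1.3 fragments of CLDN7 and the first about 1.2 to 4.6. The shCon libraries hold about 6.7 to 26.5 and 8.4 to 33.3. A smaller share of cells with the transcript and less transcript per cell cannot be told apart in bulk RNA. CLDN7 shares 38 exon bases with ELP5 on the other strand, which was at 32.7 and 33.7 TPM in shNUP210 and 34.3 and 44.3 TPM in shCon.

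The within-library ratio of CLDN1 to CLDN7, which a common scaling factor does not move, was 88.6 in shNUP210 replicate 1, against 9.93 and 6.29 in the shCon libraries. No ratio is given for shNUP210 replicate 2, where CLDN7 rests on about 0.3 to 1.3 fragments. The 88.6 is uncertain too, since CLDN7 in shNUP210 replicate 1 rests on about 1.2 to 4.6 fragments. The log2 values that follow include both shNUP210 libraries. On the log2(TPM + 1) scale, where the pseudocount limits such a ratio, the CLDN1 to CLDN7 ratio was 3.27 higher in shNUP210 (6.11 ± 0.53, against 2.84 ± 0.44 in shCon, SD, n = 2 each), and the difference was 2.10 with a pseudocount of 5 TPM and 4.15 with 0.1 TPM. CLDN7 passed the filter through shCon alone, so the ratio is a description. With 2 libraries against 2, an exact two-sided permutation test cannot go below 0.33, so the ratios are given without a p-value.

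In Huh7 the claudin pool was dominated by a gene outside the 10, CLDN6, an embryonic claudin. CLDN6 was at 274.6 and 277.1 TPM in shNUP210 and 245.5 and 219.5 TPM in shCon, and it did not pass (log2 fold change 0.25, SE 0.11, limma adjusted p = 0.222). Summed over the 19 claudins listed, claudin TPM was 491.2 and 471.1 in shNUP210 and 384.4 and 336.8 in shCon. CLDN1 made up 26.5 and 27.5% of that sum in shNUP210 and 18.9 and 17.1% in shCon. CLDN3 and CLDN7 together made up 0.84 and 0.59% in shNUP210 and 4.02 and 5.59% in shCon. The share of CLDN1 was higher and that of the CLDN3 and CLDN7 pair lower in both shNUP210 libraries. Both genes of the pair passed the filter through the shCon libraries alone, so the share of the pair is a description. Of the other claudins, 16 of 21 were listed and 6 tested, and limma called 0, with 1 at an unadjusted p under 0.05. CLDN22 was that gene, at 11.5 and 11.6 TPM in shNUP210 and 4.49 and 2.46 TPM in shCon. It passed the filter through the shNUP210 libraries alone, so its groups had to differ, and it shares 2581 exon bases with WWC2, so its reads may belong to that gene. CLDN16 was not tested and was at 14.7 and 4.48 TPM in shNUP210 and 1.6 and 0.62 TPM in shCon. CLDN22 and CLDN16 were picked out after their values were seen.

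**Figure D2:**
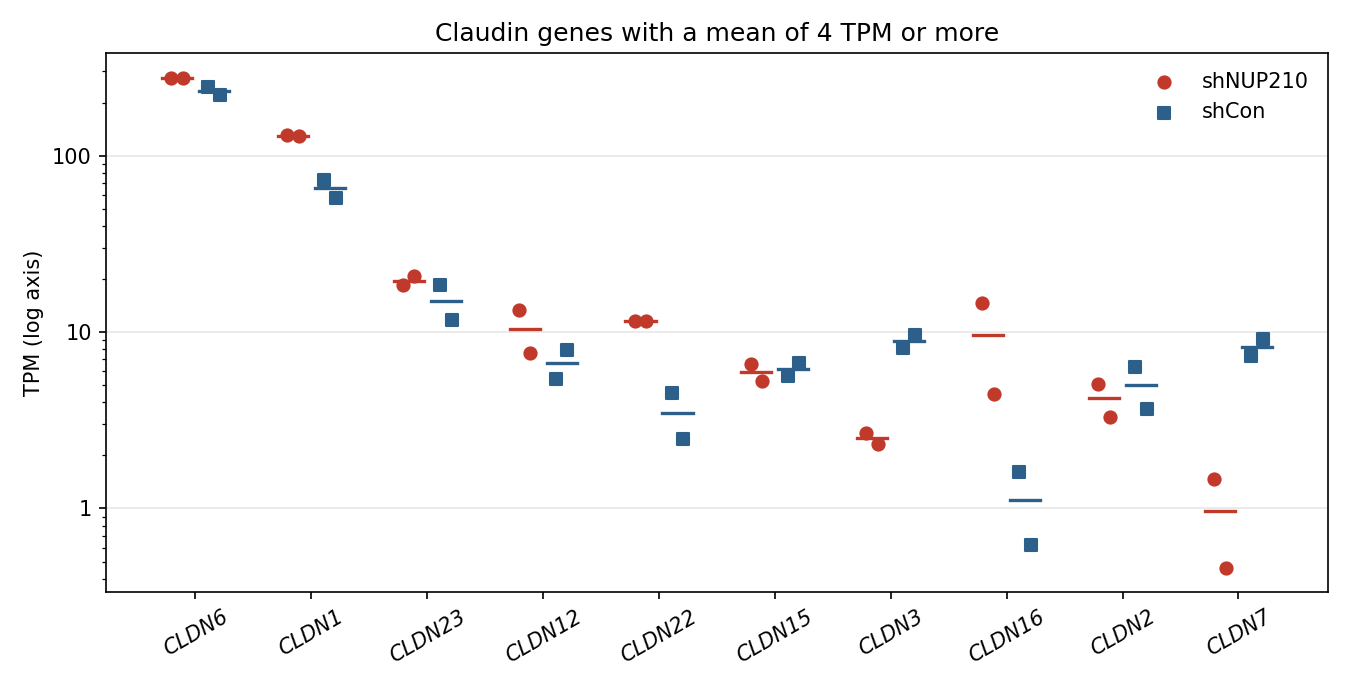
TPM of the 10 claudin genes with a mean of at least 4 TPM over the 4 libraries, on a log axis, with circles for shNUP210, squares for shCon and lines for group means. CLDN6 stands highest in both groups, CLDN1 is next, and CLDN3 and CLDN7 are at 2.68 TPM or less in shNUP210 and at 7.30 TPM or more in shCon.

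The other 3 tight junction genes among the 10 did not pass. OCLN (ENSG00000197822, chromosome 5, 69492292 to 69558104, plus strand), encoding occludin, was at 8.91 and 12.6 TPM in shNUP210 and 6.76 and 4.61 TPM in shCon (log2 fold change 0.81, SE 0.37, limma adjusted p = 0.246). TJP1 (ENSG00000104067, chromosome 15, 29699367 to 29968865, minus strand), encoding the scaffold ZO-1 that ties claudins to actin, was at 9.55 and 8.81 TPM in shNUP210 and 4.81 and 4.36 TPM in shCon (log2 fold change 0.87, SE 0.35, adjusted p = 0.202). Both genes were higher in each shNUP210 library than in either shCon library, with less spread within groups for TJP1. F11R (ENSG00000158769, chromosome 1, 160995211 to 161021348, minus strand), encoding the adhesion molecule JAM-A, was at 10.4 and 6.69 TPM in shNUP210 and 23.0 and 9.81 TPM in shCon (log2 fold change -0.79, SE 0.47, adjusted p = 0.345). Its groups overlapped, and the first shCon library was higher than the second. The F11R log2 fold change was -0.21 without shCon replicate 1, -1.36 without shCon replicate 2 and -0.505 without shNUP210 replicate 2. F11R shares 1853 exon bases on the same strand with the overlapping gene RP11-544M22.13, which was at 4.44 and 5.81 TPM in shNUP210 and 4.46 and 12.8 TPM in shCon, so reads may be divided between the 2 genes.

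A further 18 tight junction genes were looked at, of which 16 were listed and 10 tested. Limma called 0 of the 10, with 1 lower at an unadjusted p under 0.05, and the median log2 fold change was 0.47, against 0.23 for all tested genes. Among the most abundant was LSR, which encodes the receptor of junctions where 3 cells meet. LSR was at 71.2 and 79.4 TPM in shNUP210 and 96.2 and 87.1 TPM in shCon (limma adjusted p = 0.285). TJP3, encoding ZO-3 and picked out after its values were seen, was the gene at an unadjusted p under 0.05, at 5.42 and 4.22 TPM in shNUP210 and 11.1 and 18.5 TPM in shCon (adjusted p = 0.106). The log2 fold changes of the scaffold genes TJP1 and TJP3 thus differed in sign, 0.87 for TJP1 and -1.41 for TJP3, neither past the threshold.

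Of the 2 classical cadherins, CDH2 lay above without overlap in shNUP210, as did 42.9% of all tested genes. The groups of CDH1 overlapped, and neither gene passed the test. CDH1 (ENSG00000039068, chromosome 16, 68737225 to 68835548, plus strand), encoding E-cadherin, was at 12.3 and 8.02 TPM in shNUP210 and 8.60 and 10.01 TPM in shCon. The groups overlapped, and the log2 fold change was 0.09 (SE 0.34, limma adjusted p = 0.897), with a sign that turns negative under all 4 other scalings and without shNUP210 replicate 1 or shCon replicate 1. CDH2 (ENSG00000170558, chromosome 18, 27950966 to 28177446, minus strand), encoding N-cadherin, was at 18.9 and 16.6 TPM in shNUP210 and 6.74 and 6.15 TPM in shCon. The CDH2 mean in shNUP210 was 2.75 times that in shCon, and the log2 fold change was 1.33 (SE 0.28, limma adjusted p = 0.0718), which did not pass. The within-library ratio of CDH2 to CDH1 was 1.53 and 2.08 in shNUP210, against 0.784 and 0.614 in shCon, so N-cadherin transcripts outnumbered E-cadherin transcripts in both shNUP210 libraries and in neither shCon library. On the log2(TPM + 1) scale the CDH2 to CDH1 ratio was 0.77 ± 0.28 in shNUP210 and -0.47 ± 0.22 in shCon (SD, n = 2 each), a difference of 1.24.

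Of 21 other cadherins, 8 were listed and only CDH24 passed the filter, with 7.56 and 8.75 TPM in shNUP210 and 5.84 TPM in both shCon libraries (limma adjusted p = 0.483). CDH6, a cadherin of kidney and developing epithelia, was not tested and was picked out after its values were seen. CDH6 was at 4.99 and 5.02 TPM in shNUP210 and 0.65 and 0.20 TPM in shCon. The liver-intestine cadherin CDH17, picked out in the same way, was at 1.48 and 3.10 TPM in shNUP210 and 5.47 and 2.55 TPM in shCon, which overlap.

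CTNNB1 (ENSG00000168036, chromosome 3, 41194741 to 41260096, plus strand), encoding beta-catenin, was among the 2 most abundant of the 10 genes in every library. CTNNB1 was at 103.9 and 104.1 TPM in shNUP210 and 81.7 and 89.7 TPM in shCon (log2 fold change 0.28, SE 0.13, limma adjusted p = 0.253). Upper-quartile scaling turned its sign (log2 fold change -0.017).

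None of the adherens junction partners was called. Of 15 genes, 13 were listed and 11 tested, and all 11 had log2 fold changes above 0 in TPM as deposited, as did 6991 of all 10140 tested genes, with 9 above without overlap (42.9% of all tested genes did so). JUP turned negative under trimmed-mean, median-ratio and upper-quartile scaling, and NECTIN2 under upper-quartile scaling. Their median was 0.58, against 0.23 for all tested genes. Limma called 0 of the 11, with 4 higher at an unadjusted p under 0.05. AFDN, encoding the actin linker afadin, was at 140.5 and 146.4 TPM in shNUP210 and 88.6 and 102.7 TPM in shCon (limma adjusted p = 0.0801). NECTIN2, encoding an afadin-bound adhesion molecule, was at 187.2 and 183.5 TPM in shNUP210 and 151.9 and 153.0 TPM in shCon (adjusted p = 0.182). CTNNA1, encoding alpha-catenin, was at 93.5 and 80.2 TPM in shNUP210 and 55.5 and 59.4 TPM in shCon, and CTNND1, encoding p120-catenin, was at 42.8 and 40.9 TPM in shNUP210 and 24.5 and 26.5 TPM in shCon (adjusted p = 0.102 and 0.1). JUP, CTNNA1 and CTNND1 were named after their values were seen.

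The list of beta-catenin turnover and Wnt target genes held the only other called junction gene. DKK1, which encodes a secreted Wnt antagonist and is itself a Wnt target, rose to 95.5 and 78.5 TPM in shNUP210, against 38.3 and 40.1 TPM in shCon (log2 fold change 1.12, SE 0.17, limma adjusted p = 0.0398). Under the other 4 scalings its call was lost (log2 fold change 0.83 to 0.94, limma adjusted p 0.0576 to 0.0613). The call was also lost when no or a lower expression filter was set, when the variance did not follow the mean, with the replicate numbers as a block and whenever a library was left out. Of the 14 tested genes of this list 12 had log2 fold changes above 0 and 2 below in TPM as deposited. At an unadjusted p under 0.05, 3 were higher and 0 lower, and the median was 0.39. Of all 10140 tested genes, 6991 were above 0, 1866 were higher and 603 lower at that p, and the median was 0.23. Under the other 4 scalings 9 of the 14 were above 0, with medians of 0.108 to 0.16. GLUL, a liver beta-catenin target encoding glutamine synthetase and 1 of the 2 below 0 in TPM as deposited, was picked out after its values were seen. It was at 587.0 and 495.1 TPM in shNUP210 and 647.2 and 616.1 TPM in shCon (adjusted p = 0.258).

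**Figure D3:**
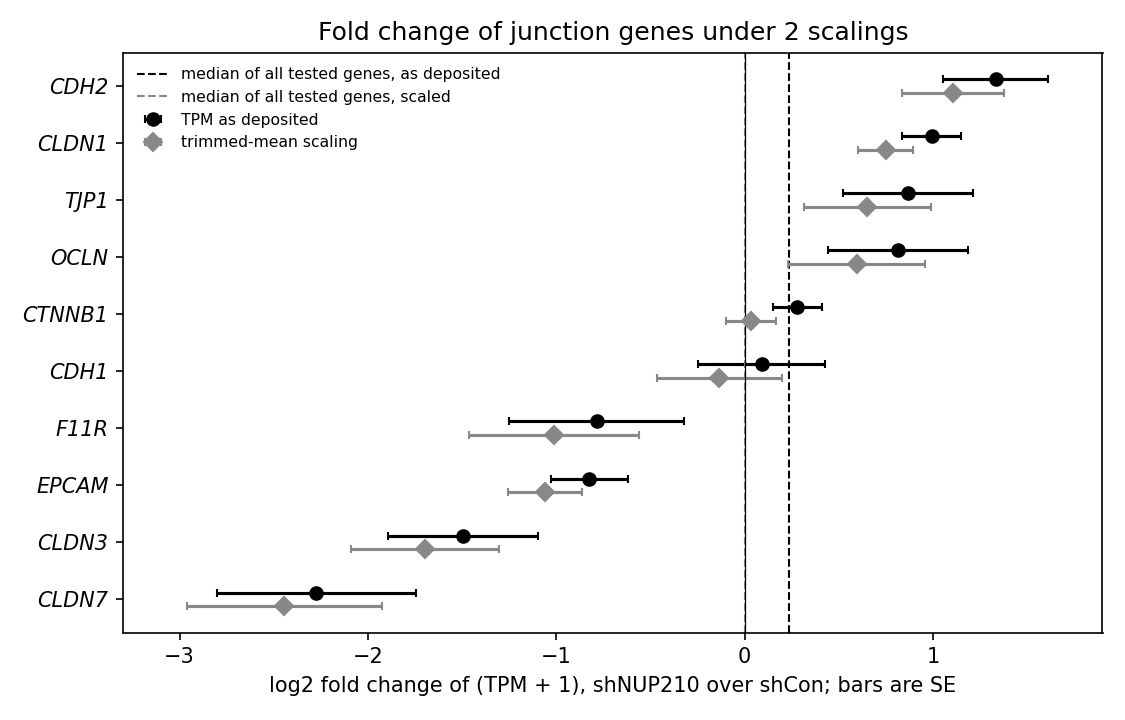
Log2 fold change of (TPM + 1), shNUP210 over shCon, with SE bars, for the 10 genes in TPM as deposited (black circles) and after trimmed-mean scaling (grey diamonds), with the median of all tested genes as dashed lines. Scaling moves every gene to the left by about the shift of the median, and CDH1 and CTNNB1 come to lie on either side of 0.

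EPCAM (ENSG00000119888, chromosome 2, 47345158 to 47387601, plus strand) was at 19.2 and 16.9 TPM in shNUP210, against 32.9 and 32.5 TPM in shCon. The shCon libraries were nearly equal, and both shNUP210 libraries lay below them. The mean in shNUP210 was 0.553 of that in shCon (log2 fold change -0.82, SE 0.20), and with a limma adjusted p of 0.0917 EPCAM did not pass. Under upper-quartile scaling its log2 fold change was -1.11 and its adjusted p 0.0501. CLDN7 and CLDN3 were lower too, but they passed the filter through the shCon libraries alone, so their groups had to differ. Their likeness to EPCAM in direction is a description. Of 13 EPCAM partners and proteases, 8 were tested and limma called 0, with 2 higher and 1 lower at an unadjusted p under 0.05 and a median log2 fold change of 0.03. FHL2, among the higher and picked out after its values were seen, was at 7.76 and 12.0 TPM in shNUP210 and 1.68 and 2.25 TPM in shCon. FHL2 passed the filter through the shNUP210 libraries alone, so its groups had to differ. ADAM10, which encodes a membrane protease, was at 49.9 and 59.6 TPM in shNUP210 and 38.0 and 23.6 TPM in shCon (limma adjusted p = 0.143). CD9, encoding a tetraspanin, was at 5.08 and 6.77 TPM in shNUP210 and 23.1 and 10.9 TPM in shCon (adjusted p = 0.152).

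Desmosomes and gap junctions gave values of both signs. Of 5 tested desmosome genes limma called 0, with 2 higher and 1 lower at an unadjusted p under 0.05. DSP, encoding the plaque protein desmoplakin, was at 20.9 and 23.6 TPM in shNUP210 and 11.9 and 10.4 TPM in shCon (limma adjusted p = 0.1). PERP was at 19.3 and 18.7 TPM in shNUP210 and 16.6 and 16.2 TPM in shCon (adjusted p = 0.611). Of 4 tested connexins limma called 0, with 1 higher and 1 lower at an unadjusted p under 0.05. GJB1, encoding connexin 32, the main connexin of hepatocytes, was at 32.3 and 22.6 TPM in shNUP210 and 56.9 and 57.5 TPM in shCon (log2 fold change -1.05, adjusted p = 0.0714), and it was called lower under trimmed-mean, median-ratio and upper-quartile scaling. GJA1, encoding connexin 43, was at 55.2 and 52.8 TPM in shNUP210 and 31.0 and 22.2 TPM in shCon (log2 fold change 1.01, adjusted p = 0.0727). GJA1 exceeded GJB1 in both shNUP210 libraries and was below it in both shCon libraries.

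Polarity genes lay close to the median of all genes. Of 12 tested, limma called 0, with 1 higher at an unadjusted p under 0.05, and their median log2 fold change was 0.19. STK11, encoding the kinase LKB1, was at 94.8 and 93.6 TPM in shNUP210 and 86.0 and 91.0 TPM in shCon (limma adjusted p = 0.694), and SCRIB was at 86.7 and 81.5 TPM in shNUP210 and 98.9 and 85.2 TPM in shCon (adjusted p = 0.621).

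Transcription factors known to repress or maintain epithelial junction genes were mostly low. Of 11 EMT factors, 7 were listed and 4 tested, and limma called 0, with 0 at an unadjusted p under 0.05. SNAI1, SNAI2, SNAI3, ZEB1, PRRX1, GRHL1, GRHL2 and ESRP1 were picked out after their values were seen. SNAI1, a repressor of CDH1, was at 8.35 and 6.20 TPM in shNUP210 and 7.07 and 7.17 TPM in shCon. SNAI2 was listed at 0 in both shNUP210 libraries and at 0.25 and 0 TPM in shCon, and ZEB1 was at 6.27 and 6.06 TPM in shNUP210 and 2.08 and 6.73 TPM in shCon. TCF3, encoding an E-box factor, was at 193.5 and 241.7 TPM in shNUP210 and 237.1 and 210.8 TPM in shCon, and TCF4 was at 10.8 and 4.99 TPM in shNUP210 and 8.12 and 5.76 TPM in shCon. The groups of SNAI1, ZEB1, TCF3 and TCF4 overlapped. SNAI3 and PRRX1 were too low to be tested and lay above without overlap. SNAI3 was at 2.21 and 2.80 TPM in shNUP210 and 0.31 and 1.26 TPM in shCon. PRRX1 was at 0.63 and 1.23 TPM in shNUP210 and 0.23 and 0 TPM in shCon. Of the epithelial factors, 4 were tested and limma called 0, with 1 higher at an unadjusted p under 0.05. That gene, GRHL1, a grainyhead-family factor, was at 14.6 and 16.7 TPM in shNUP210 and 3.15 and 7.68 TPM in shCon (limma adjusted p = 0.129). GRHL2 and ESRP1, factors of many epithelia, were at or below 0.25 TPM in every library. ELF3 and ESRP2 were the most abundant, with overlapping groups.

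**Figure D4:**
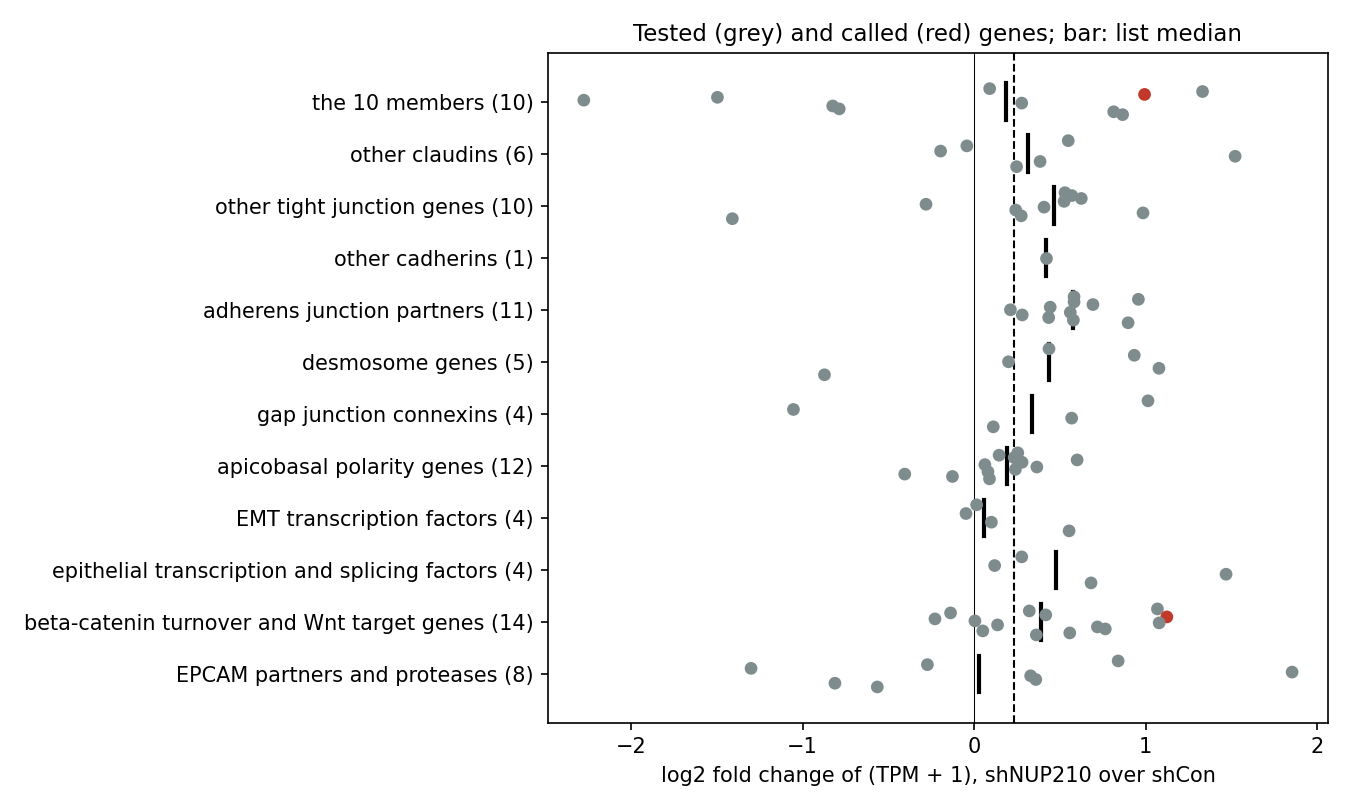
Log2 fold change of (TPM + 1), shNUP210 over shCon, of every tested gene in the 10 members and in 11 further junction lists, with the number tested in brackets, list medians as bars and the median of all tested genes as a dashed line. The 11 adherens junction partners lie above 0 in TPM as deposited (JUP and NECTIN2 do not under other scalings), and CLDN1 and DKK1 are the called genes in red. The low end of the members is CLDN7 and CLDN3, which passed the filter through the shCon libraries alone, so the width of the members is not a trait of them.

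Joined over the 11 lists, 79 other junction genes were tested and 1 was called (limma), with 15 higher and 4 lower at an unadjusted p under 0.05 and a median log2 fold change of 0.36. CLDN22 and FHL2, among the 15 higher, passed the filter through the shNUP210 libraries alone. In all tested genes, 24.3% had an unadjusted p under 0.05, with 1866 higher and 603 lower of 10140, and the median was 0.23.

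Among the markers of other cells, the summed biliary list was higher in shNUP210, and KRT19 made up most of that sum. EPCAM, which also marks biliary cells but is not on that list, was lower, at 19.2 and 16.9 TPM in shNUP210 and 32.9 and 32.5 TPM in shCon. KRT19, the keratin of bile duct cells, rose to 192.3 and 182.4 TPM in shNUP210, against 75.0 and 58.1 TPM in shCon (limma adjusted p = 0.0215). The 4 listed biliary markers of 5 summed to 284.6 and 249.2 TPM in shNUP210 and 147.9 and 127.8 TPM in shCon, with KRT7 not listed and SOX9 overlapping between groups. Of the leukocyte list only LYZ and CD68 were listed, at a sum of 40.7 and 22.0 TPM in shNUP210 and 161.2 and 142.4 TPM in shCon. PTPRC, CD3E and MS4A1 were not listed. The 5 listed fibroblast markers of 6 summed to 36.7 and 19.2 TPM in shNUP210 and 10.7 and 15.2 TPM in shCon. All 4 libraries are of the Huh7 line, so these lists are read here as transcripts of the cultures. The part of these markers in the junction values was not tested.

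The genes most like a member were found by the distance between their log2(TPM + 1) values over the 4 libraries, each centred on its mean. For CLDN1 they were PNISR, SPG7 and CTTN, at distances of 0.046 to 0.050, and CTTN, encoding the actin-binding protein cortactin and called higher (limma adjusted p = 0.0496), was at 91.8 and 95.4 TPM in shNUP210 and 52.1 and 40.7 TPM in shCon. For CLDN7 they were CPS1, LYZ and PRAP1, at 0.297 to 0.394, and CPS1, encoding the first enzyme of the urea cycle, was at 0.99 and 0.43 TPM in shNUP210 and 5.51 and 6.61 TPM in shCon. CPS1 was not called (limma adjusted p = 0.105) and passed the filter through the shCon libraries alone, while LYZ and PRAP1 were called lower (adjusted p = 0.00977 and 0.0396). For CDH2 the nearest genes were SUSD2, TGFBR2 and LSG1, at 0.083 to 0.106, and TGFBR2, encoding a TGF-beta receptor and called higher (adjusted p = 0.0407), was at 47.7 and 42.5 TPM in shNUP210 and 18.5 and 15.4 TPM in shCon. With 4 libraries in 2 groups, such likeness describes mostly the difference between the groups.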

How the data were processed

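Total RNA (Trizol) went into an Illumina TruSeq library kit, per the labels' protocols. The submitters' processing notes name Trimmomatic, STAR, RSEM and DESeq with hg38, with no roles or versions. The authors deposited 1 table of TPM per library. The unit was read from column totals, 999992.7 to 999997.8. The strand setting and annotation release are not given in the sources used here. Read depth is unknown, so no counting intervals are given. The approximate worth of 1 fragment is the most common low value of TPM times length in single-transcript genes over 1 kb. Positions and exon overlaps are from GENCODE release 29, with 19460 of 20226 gene identifiers matched.

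Groups follow the sample titles. Differences were tested with limma 3.58.1 (R 4.3.3) with eBayes allowing the variance to follow the mean, two-sided, on log2(TPM + 1) of genes with at least 5 TPM in at least 2 libraries. The steps were tested on simulated data. The 10 genes, the lists, the filter and the test were chosen with earlier results of these data known. Named genes were the 10 members, called list genes or otherwise the 2 most abundant of each list, and the 3 nearest genes of CLDN1, CLDN7 and CDH2. Other junction genes are said to be picked or named after their values were seen. Alternatives were 2 pseudocounts, 3 filters, 4 scalings, 2 variance models, a replicate block and leaving out each library. Some genes that the rule for names would give are not reported here.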

Additional observations from a re-analysis of the deposited data

How the results depend on the processing

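CLDN1, the single member called, kept a positive log2 fold change under all 16 alternatives (0.70 to 1.16) and its call under 4: both pseudocounts, the filter on a mean of 5 TPM and the robust prior. The count of members called by limma was therefore 0 without a filter, with 1 TPM in 2 libraries, under the 4 other scalings, without the mean-variance trend and with the replicate block, and 0 whenever a library was left out; 5 to 7 members were at an unadjusted p under 0.05 in these settings, beside 1711 to 2972 of all 10140 to 20226 genes tested, and they include CLDN7 and, except without shCon replicate 2, CLDN3, whose groups the filter on 5 TPM forced apart. All genes called numbered 14 without a filter, 57 with 1 TPM in 2 libraries, 0 without the trend (2290 at an unadjusted p under 0.05) and 4 to 27 when a library was left out. With the replicate block, 63 genes were called; replicate 1 of the 2 groups did not deviate together (correlation 0.023 over 10140 genes), and nothing in the labels pairs the numbers. NUP210 kept a log2 fold change of -1.495 but not its call without a filter, with 1 TPM in 2 libraries, without the trend and with the replicate block, and ranged from -1.62 to -1.37, uncalled, when a library was left out. CDH1 turned to -0.13 (trimmed mean), -0.13 (median ratio), -0.18 (upper quartile) and -0.21 (quantile), and ranged from -0.189 to 0.371 when a library was left out, negative without shNUP210 replicate 1 or shCon replicate 1. CTNNB1 turned to -0.017 under upper-quartile scaling. The CDH2 to CDH1 difference was 0.92 with a pseudocount of 5 TPM. The CLDN1 to CLDN7 difference was 4.15 with 0.1 TPM and 2.10 with 5 TPM, as a pseudocount weighs most on low values. The other 7 members kept their sign and stayed uncalled wherever they were tested, but with a pseudocount of 5 TPM CLDN3 was at -0.887, CLDN7 at -1.15 and TJP1 at 0.565; CLDN7 did not pass the filter on the mean. The cause of the lost calls was not tested. With 2 libraries a group and few fragments for CLDN3 and CLDN7, small differences are not detectable.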
